A study of Mus musculus with 5 samples.

Results

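The Hoxb cluster of mouse epiblast stem cells was described as the peaks of 4 histone marks that lie on mm9 chromosome 11 between positions 96105000 and 96240000, a window of 135.0 kb that runs from Hoxb9 at the low end to Hoxb1 at the high end. It held 106 of the 156288 peaks in the 4 lists: 39 of H3K27me3, 10 of H3K27ac, 33 of H3K4me3 and 24 of H3K4me1. The cells were EpiSC9, a line of epiblast stem cells, which stand for the primed state of pluripotency and were grown in FGF2 (10 ng/ml) on irradiated mouse embryonic fibroblasts. Each chromatin immunoprecipitation used 5000000 crosslinked cells and the antibody named by its mark, and no treatment separated the samples. Every mark had 1 library and no replicate, so the values below describe these libraries and carry no test. Peak lists hold only intervals past the caller's threshold, so a stretch without a peak is not a stretch without signal, and the read depth behind the lists is unknown. The feeder fibroblasts are a second cell type in the dish. Their share of the signal was not measured, and markers of either cell type were not placed on mm9 here.

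Hox genes encode homeodomain transcription factors that give cells their place along the head-to-tail axis. Within a cluster, the order of the genes on the chromosome matches the order in which they are switched on and the body level at which they act. Before activation, the Polycomb repressive complexes cover a cluster with trimethylation of lysine 27 on histone H3 (H3K27me3). The same lysine can instead be acetylated (H3K27ac), a mark of active promoters and enhancers, and a single histone tail cannot carry both. H3K4me3 marks promoters, also silent ones in bivalent chromatin, and H3K4me1 marks enhancers and the flanks of promoters.

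RefSeq orders the 9 members as Hoxb9, Hoxb8, Hoxb7, Hoxb6, Hoxb5, Hoxb3, Hoxb4, Hoxb2 and Hoxb1 by their first base, with the longest gene, Hoxb3, starting ahead of Hoxb4. Among them lie the microRNA gene Mir10a and the noncoding genes Hoxb5os and Hoxb3os. Hoxb1 and Hoxb2 act in the hindbrain, Hoxb3 and Hoxb4 in the hindbrain and neck, with Hoxb4 also known from blood stem cells, and Hoxb5 to Hoxb9 act at trunk levels, Hoxb9 in the rib cage among others. The annotation used here is of build GRCm38, so its positions were not carried onto mm9 and no peak was assigned to a single gene. Peaks are placed by their distance from the low end of the window, with the Hoxb9 side low and the Hoxb1 side high.

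Polycomb complexes are known to gather at DNA rich in CG dinucleotides, so the CG content of start regions of the members was read. RefSeq tables gave a start region (250 bases before to 50 after the start) for 3 of the 9 members, shown here on their coding strand with every CG in capitals. They are from build GRCm38.p6, plus strand, at chr11:96365508-96365807 for Hoxb1, chr11:96318017-96318316 for Hoxb4 and chr11:96281655-96281954 for Hoxb8, positions that cannot be set against the mm9 positions of the peaks.
Hoxb1: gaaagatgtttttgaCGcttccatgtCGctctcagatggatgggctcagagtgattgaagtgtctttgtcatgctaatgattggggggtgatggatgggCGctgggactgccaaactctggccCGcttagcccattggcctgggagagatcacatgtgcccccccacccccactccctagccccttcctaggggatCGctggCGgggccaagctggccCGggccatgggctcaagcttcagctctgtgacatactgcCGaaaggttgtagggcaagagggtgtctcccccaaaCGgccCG
Hoxb4: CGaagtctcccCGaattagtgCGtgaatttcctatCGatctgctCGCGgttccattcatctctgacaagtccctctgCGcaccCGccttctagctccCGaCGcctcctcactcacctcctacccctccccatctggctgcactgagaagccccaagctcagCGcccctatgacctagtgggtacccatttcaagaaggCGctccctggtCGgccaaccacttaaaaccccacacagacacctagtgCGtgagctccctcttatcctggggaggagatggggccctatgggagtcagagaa
Hoxb8: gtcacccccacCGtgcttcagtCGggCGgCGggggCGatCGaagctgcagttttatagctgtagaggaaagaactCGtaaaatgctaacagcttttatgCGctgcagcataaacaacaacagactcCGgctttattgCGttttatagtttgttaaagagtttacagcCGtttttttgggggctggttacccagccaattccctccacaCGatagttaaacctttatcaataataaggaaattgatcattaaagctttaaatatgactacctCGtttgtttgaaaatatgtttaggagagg
The Hoxb8 region held 13 CG at a GC content of 42.3%, an observed-to-expected CG ratio of 0.97 that equals or exceeds 92.3% of the 32851 start regions in the table. Hoxb4 had 14 CG and a ratio of 0.59 (percentile 63.7), and Hoxb1 had 10 CG and a ratio of 0.38 (percentile 49.6). The median over the table was 7 CG and a ratio of 0.38, so the AT-rich Hoxb8 region had the highest ratio of the 3 and Hoxb1 stood at the median. By count of CG the 3 were close, at percentiles 58.6 (Hoxb1), 65.4 (Hoxb4) and 63.7 (Hoxb8). The ratio also depends on GC content, which was 59.3% for Hoxb1 and 58.0% for Hoxb4. The letters TGATNNAT, a form of the site that Hox proteins bind together with Pbx, were searched on both strands without regard to other motifs. They occurred 1 time in the Hoxb1 region on the coding strand, 1 time in the Hoxb8 region on the other strand and 0 times in the Hoxb4 region, and 8.85% of all start regions in the table hold them.

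H3K27me3 was the leading mark of the cluster. Its 39 peaks covered 107.7 kb, or 79.8% of the window, against 0.723% of chromosome 11 up to its last peak. H3K4me1 covered 56.7 kb (42.0% of the window, against 10.2% of the chromosome) and H3K4me3 covered 30.4 kb (22.5%, against 2.32%). H3K27ac was the scarcest of the 4 marks, with 7.83 kb (5.8%, against 2.42%), or 4.73 kb when peaks had to score 100 or more. The score that the authors' peak caller gave each peak, which is used here only to rank peaks within a list, was high above all for H3K27me3. At or above the median score of their own list were 33 of 39 H3K27me3 peaks, 11 of 24 H3K4me1 peaks, 8 of 33 H3K4me3 peaks and 4 of 10 H3K27ac peaks. The H3K4me3 and H3K27ac peaks of the cluster were thus mostly weak for their lists, and also narrow, with a median width of 578 bp for H3K4me3 against 981 bp over the list and 618.5 bp for H3K27ac against 818 bp.

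**Figure D1:**
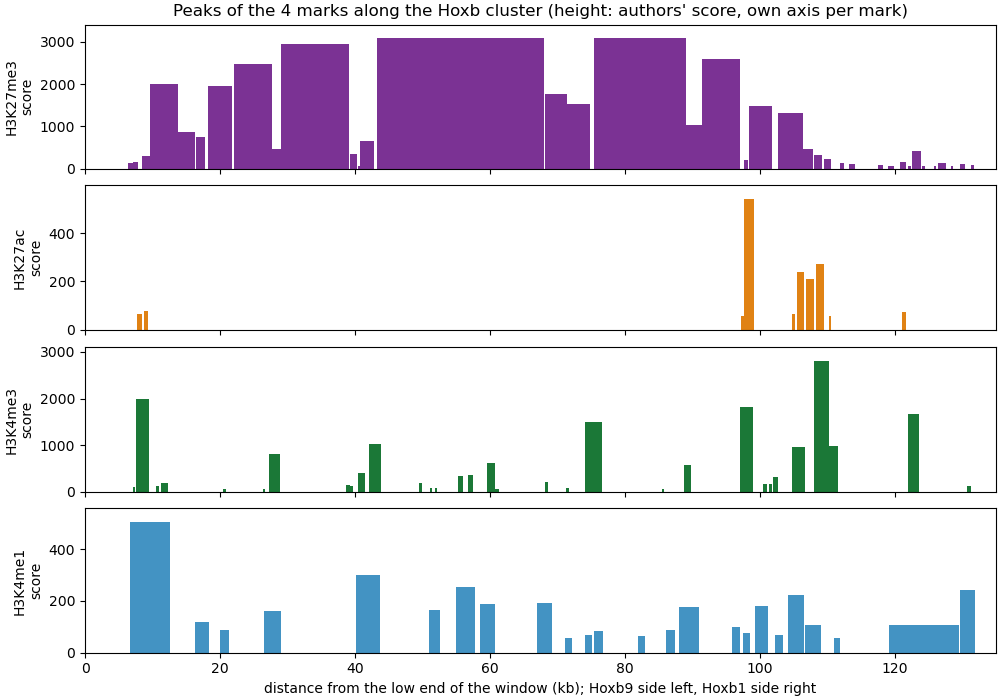
Peaks of the 4 marks along the Hoxb window; the horizontal axis is the distance from the low end in kb, the width of a bar is the width of the peak, and its height is the authors' score, with an own axis per mark. H3K27me3 fills the cluster from 9.6 to 106.4 kb with breaks of at most 827 bp and is low and broken from 111.9 kb on, while the 10 H3K27ac peaks lie near 8 kb, between 97.2 and 110.6 kb and at 121.1 kb.

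The 5 widest H3K27me3 peaks all lay on the Hoxb9 side of 97.2 kb. The widest spanned 16250 bp from 43.3 to 59.6 kb, scored 3100, the level at which many scores stop, and was the widest H3K27me3 peak of the whole list. Those that followed were 13685 bp wide at 75.4 to 89.1 kb (score 3100), 10116 bp at 29.0 to 39.1 kb (score 2939.76), 8419 bp at 59.6 to 68.0 kb (score 3100) and 5698 bp at 91.4 to 97.1 kb (score 2600.2). The first H3K27me3 peak began at 6.4 kb (623 bp wide, score 124.06), and the last ended at 131.8 kb (479 bp, score 74.81). Both end peaks were short and low beside the 5 widest, though short peaks also lay in the interior, such as 358 bp at 40.4 to 40.7 kb (score 60.19).

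Coverage in bins of 5 kb showed that the mark was uneven between the ends. Of 27 bins, 15 were covered by H3K27me3 to 90% or more, 7 to between 50% and 90%, and 5 to less than 50%. From 10 to 95 kb the lowest bin stood at 87.3%. From 110 kb on the bins stood at 37.6%, 31.8%, 59.6%, 40.7% and 18.3%, and at the Hoxb9 end the bins from 0 to 5 and 5 to 10 kb stood at 0.0% and 56.9%. Coverage was thus high between 10 and 95 kb, at 87.3% to 100.0% of each bin, and lower toward both ends. H3K27ac lay in 6 bins, and in 0 of the 15 bins with 90% or more H3K27me3. The bin with the most H3K27ac, from 105 to 110 kb, was 71.1% covered by it and still 89.1% covered by H3K27me3.

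**Figure D2:**
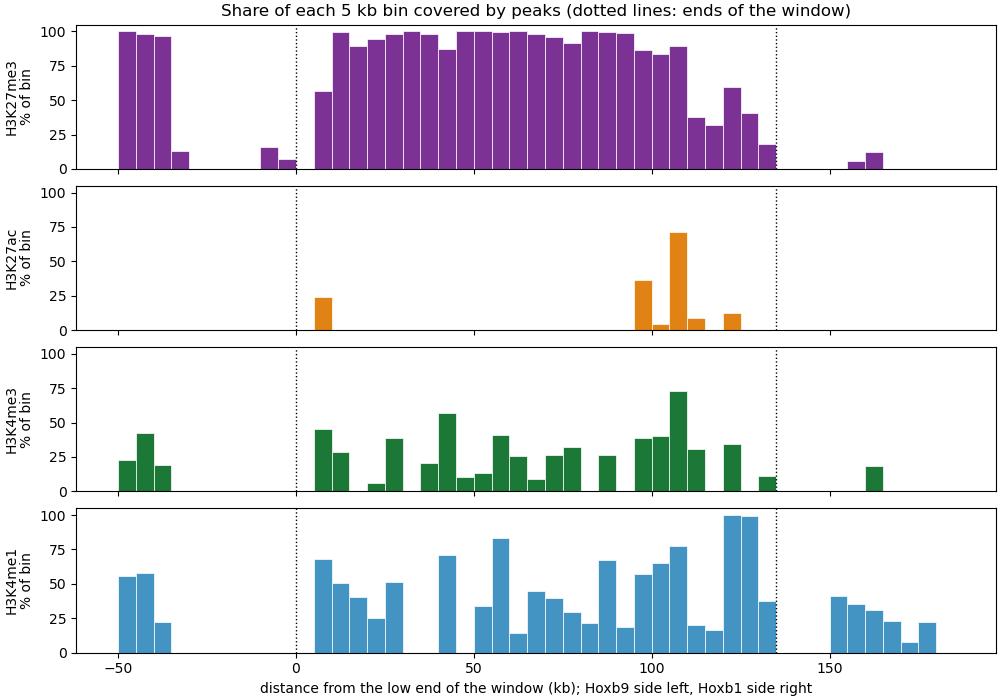
Share of each 5 kb bin covered by peaks of each mark, in the window (between the dotted lines) and in 50 kb on either side. H3K27me3 stays at 87.3% or more from 10 to 95 kb and at 59.6% or less beyond 110 kb, H3K27ac is seen in 6 bins, and H3K4me1 reaches 100.0% and 99.1% in the bins from 120 to 130 kb.

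The 10 H3K27ac peaks formed 4 groups when peaks within 5 kb were joined. The first, near the low end at 7.8 to 9.3 kb, had 2 peaks over 1.2 kb, and the second, at 97.2 to 99.1 kb, had 2 peaks over 1.82 kb. The third, at 104.8 to 110.6 kb, had 5 peaks over 4.2 kb, and the fourth, at 121.1 to 121.7 kb, was a single peak of 608 bp. The 2 middle groups together ran from 96202244 to 96215622 on mm9, a stretch of 13.4 kb that held 7 of the 10 peaks and 6.02 of the 7.83 kb. Acetylation of the Hoxb cluster was therefore concentrated between 97.2 and 110.6 kb, on the Hoxb1 side of the window, with a smaller patch at the opposite end. It did not reach its height at the Hoxb1 end itself, where H3K27ac covered 2.87% of the last 21.2 kb of the domain. Which gene the acetylated stretch belongs to was not determined.

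Peak by peak, the strongest acetylation was at 96202721 to 96204113 (1393 bp, score 543.94, at or above 75.9% of the H3K27ac list). Next came 96213369 to 96214519 (1151 bp, score 270.62, percentile 62.5), 96210571 to 96211591 (1021 bp, score 239.68, percentile 59.8) and 96211839 to 96213003 (1165 bp, score 211.82, percentile 56.8). These 4 were the only ones that scored 100 or more, and all lay in the 13.4 kb stretch. The other 6 were weak. In the same stretch, 96202244 to 96202669 and 96215197 to 96215622 both scored 55.23, and 96209783 to 96210216 scored 66.31. Outside it, 96112754 to 96113382 scored 66.77, 96113774 to 96114345 scored 76.62, and 96226125 to 96226732 scored 75.07. No weak peak passed percentile 23.6 of its list, and the lists begin at a score of 50.

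Most of this acetylation lay on H3K27me3 rather than between its peaks. Of the 7.83 kb of H3K27ac, 6.04 kb (77.2%) fell inside H3K27me3 peaks and 1.78 kb in gaps between them. H3K27me3 covered 85.9% of the whole domain, from its first to its last base, so the share on acetylated bases was 77.2% against 85.9% over all bases there. With scores of 100 or more required in every list, the share on acetylated bases was 87.9%. Over chromosome 11 as a whole, with this window included, 0.324% of H3K27ac bases lay in H3K27me3. By peaks, 9 of the 10 H3K27ac peaks in the window touched H3K27me3 (95% exact Clopper-Pearson interval 55.5 to 99.7%), whereas 0.601% of the 33600 H3K27ac peaks of the list did. With a score of 100 or more required, 4 of 4 did, and with peaks joined within 500 bp 5 of 5. In the other direction 9 of 39 H3K27me3 peaks touched H3K27ac (23.1%, 11.1 to 39.3), against 1.27% of 16975 in the list. Neighbouring peaks at a single locus are not independent, and the intervals cover counting over peaks only. Separate libraries were made for each mark, so whether both lay in the same cells was not measured.

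The overlap differed among the H3K27ac peaks. The peaks at 96113774 and 96209783 lay wholly inside H3K27me3. Those at 96210571, 96211839 and 96202721 lay inside it for 96.0%, 93.5% and 90.5% of their bases, and those at 96226125, 96215197 and 96213369 for 87.8%, 72.3% and 71.9%. The peak at 96112754 met H3K27me3 in 36 of 629 bp (5.7%), and the peak at 96202244 in 0 of 426 bp, with the nearest H3K27me3 peak 23 bp away. Those 2 weak peaks were the only ones with most of their bases off H3K27me3. The strongest 4 were all among those at 71.9% or more.

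The H3K27me3 peaks under the acetylation ranked high in their list, at percentiles 78.8 to 97.8 by score, and none was wider than 5 kb. The 9 that touched H3K27ac were 608 to 3737 bp wide (median 1057) and scored 147.96 to 1488.75 (median 299.12). The 30 that did not were 301 to 16250 bp wide (median 1277) and scored 52.6 to 3100 (median 433.04). None of the 6 H3K27me3 peaks over 5 kb touched H3K27ac, but neither did the small peaks beyond 122.0 kb, so the ranges overlap.

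Gaps in H3K27me3 were then examined for H3K27ac. The domain had 38 gaps with a total of 17.7 kb, 14.1% of its 125.4 kb, and 14 of them were shorter than 100 bp, where the caller left only a few bases between peaks. H3K27ac lay in 8 gaps of 41 to 1398 bp (median 356.5 bp), which made up 3.7 kb, and filled 3 of them completely. The count was 4 with peaks that score 100 or more and 3 with peaks joined within 500 bp. The 30 gaps without H3K27ac had a median of 123.5 bp. Of the 13 gaps of 500 bp or more, 3 held H3K27ac and 10 did not. All 8 gaps with H3K27ac also held H3K4me3, against 19 of all 38 gaps, and 7 of the 8 held H3K4me1. Of the 10 gaps of 500 bp or more without H3K27ac, 3 held H3K4me3 and 7 held H3K4me1. Gaps with H3K27ac were longer by their median, and a longer gap meets any mark more often.

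The gaps with the most acetylated bases were at 96112790 to 96113470 (681 bp, 87.1% acetylated, wholly under H3K4me3 and H3K4me1), 96202140 to 96202692 (553 bp, 77.0% acetylated, wholly under H3K4me3) and 96214166 to 96214488 (323 bp, 100.0% acetylated, wholly under H3K4me3). In these 3 gaps H3K27ac lay over more than 200 bp, and in the other 5 over 41 to 132 bp. Gaps of 132 bp at 96203301 to 96203432 and of 41 bp at 96211416 to 96211456 were also wholly acetylated. A gap of 1398 bp at 96215505 to 96216902 was acetylated over only 118 bp and carried H3K4me3 over 1068 bp. The longest gap of the domain, 3444 bp at 96219052 to 96222495, held 0 bp of H3K27ac, of H3K4me3 and of H3K4me1. The remaining gaps among the 5 longest, of 1313, 1072 and 1022 bp, lay at 124.5 to 125.8, 128.7 to 129.8 and 119.8 to 120.9 kb and held 0 bp of H3K27ac and H3K4me3, with H3K4me1 over 100.0%, 96.0% and 100.0% of them.

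**Figure D3:**
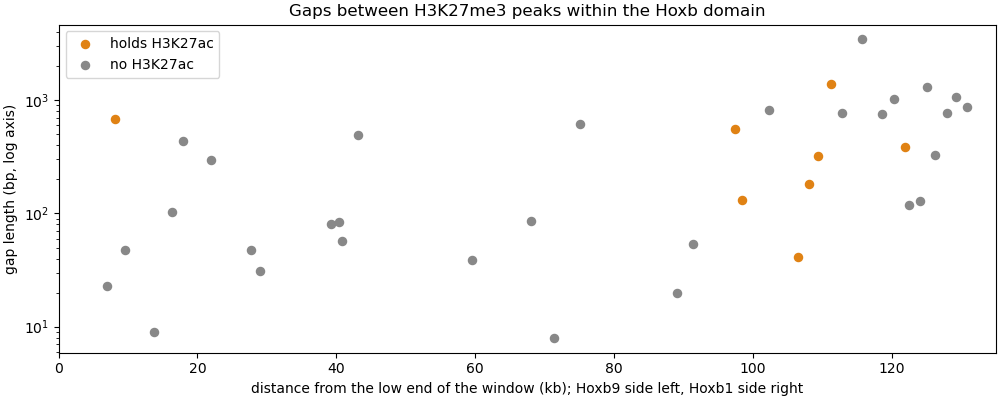
Length of each of the 38 gaps between H3K27me3 peaks (log axis, bp) by position along the cluster (kb from the low end of the window); orange gaps hold H3K27ac and grey gaps do not. The 8 acetylated gaps lie between 41 and 1398 bp, and the longest gap, 3444 bp, is not acetylated.

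The 13.4 kb stretch was set beside the rest of the domain, a division made from the H3K27ac peaks after they were seen. H3K27me3 covered 84.5% of the stretch, 96.4% of the 90.8 kb on its Hoxb9 side and 42.0% of the 21.2 kb on its Hoxb1 side. H3K27ac covered 45.0% of the stretch, 1.32% on the Hoxb9 side and 2.87% on the Hoxb1 side. The part with the least H3K27me3 was therefore not the part with the acetylation. H3K27me3 peaks had a median width of 1264 bp in the stretch, 2898.5 bp on the Hoxb9 side and 682 bp on the Hoxb1 side, and their highest scores there were 1488.75, 3100 and 409.1. Of the 13 gaps of 500 bp or more, 8 began beyond the stretch, while no gap that ended before the stretch was longer than 681 bp.

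**Figure D4:**
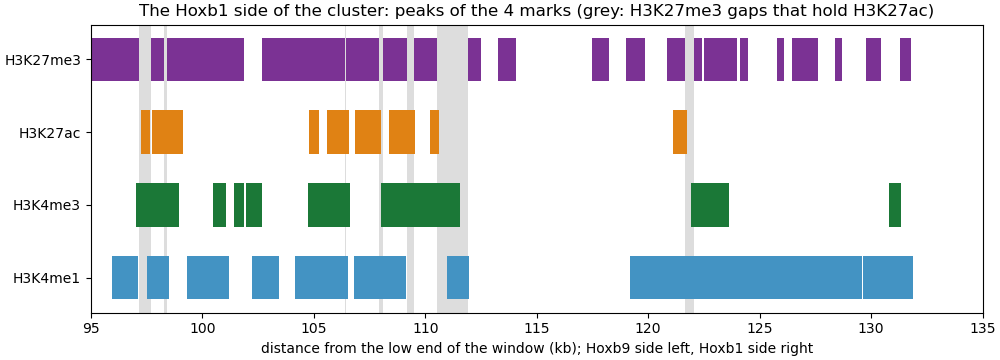
The Hoxb1 side of the cluster from 95 to 135 kb, with the peaks of the 4 marks as bars; grey bands are H3K27me3 gaps that hold H3K27ac, and the horizontal axis is the distance in kb from the low end of the window. From 97.2 to 110.6 kb H3K27ac lies mostly over H3K27me3 and H3K4me3, and beyond 119.2 kb a long H3K4me1 peak runs over broken H3K27me3.

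H3K4me3, which marks promoters, was found along the whole cluster, from 7.2 to 131.3 kb and in 20 of 27 bins, and nearly always with H3K27me3. Of its 33 peaks, 32 touched H3K27me3 (97.0%, exact interval 84.2 to 99.9), against 16.6% of the 28941 in the list, and 5 touched H3K27ac (15.2%, 5.11 to 31.9), against 49.2% of the list. Limited to scores at or above the median of each list, 8 of 8 touched H3K27me3. By state, 27 lay on H3K27me3 alone (81.8%, against 15.6% of the list), 5 on both H3K27 marks (15.2%, against 1.03%), 0 on H3K27ac alone (against 48.2%) and 1 on neither (3.03%, against 35.2%). All 5 acetylated H3K4me3 peaks also touched H3K27me3. Since H3K27me3 covers 79.8% of the window, a peak of any mark placed there would usually touch it, and by bases 81.2% of H3K4me3 lay in H3K27me3.

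The 5 H3K4me3 peaks with both H3K27 marks were wider and scored higher by their medians, with overlapping ranges. They were 1295 to 2240 bp wide (median 1929) and scored 957.72 to 2815.97 (median 1809.09), whereas the 27 with H3K27me3 alone were 254 to 2461 bp wide (median 504) and scored 50.49 to 1663.48 (median 158.04). The highest score in the cluster belonged to the peak at 96213008 to 96215247 (2240 bp, score 2815.97, percentile 72.1 of its list). The widest, 96179159 to 96181619 (2461 bp, score 1490.23), touched no H3K27ac and lay inside H3K27me3 for 75.1% of its bases, and a peak of 1828 bp at 42.0 to 43.8 kb (score 1028.69) touched none either. The next in width were at 96112476 to 96114427 (1952 bp, score 1998.73), 96202030 to 96203958 (1929 bp, score 1809.09) and 96209746 to 96211636 (1891 bp, score 957.72), and all 3 held H3K27ac. Beyond the stretch, a peak at 96226915 to 96228617 (1703 bp, score 1663.48) did not touch H3K27ac, although an H3K27ac peak ended 182 bp before it. A wide peak meets others more often by its width alone, so width and state are not independent.

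Seen from the acetylation, 8 of the 10 H3K27ac peaks touched H3K4me3 (80.0%, exact interval 44.4 to 97.5), against 42.1% of the list, and 9 touched H3K4me1 (55.5 to 99.7%), against 77.8% of the list. Of H3K27ac bases in the window, 75.0% lay in H3K4me3 and 77.6% in H3K4me1, while these marks covered 22.5% and 42.0% of the window. Over chromosome 11, 45.8% of H3K27ac bases lay in H3K4me3 and 76.2% in H3K4me1. H3K27ac in the cluster was hence mostly at H3K4me3, above the chromosome share. It was also mostly at H3K4me1, but there the share was near that of the chromosome. The peaks off H3K4me3 were that at 96211839, which ended 4 bp before an H3K4me3 peak, and that at 96226125. Both lay wholly in H3K4me1. In 3.4 kb all 4 marks were present at once, 2.52% of the window against 0.00368% of the chromosome with the window included. In the window 0 bp carried H3K27ac alone. Of the 39 H3K27me3 peaks, 26 touched H3K4me3 (66.7%, 49.8 to 80.9), against 33.2% of the list. By bases the order was the other way, with 22.9% of H3K27me3 in H3K4me3 in the window, against 34.2% over chromosome 11. The H3K27me3 peaks of the window were also wider, with a median of 1174 bp against 405 bp over the list. A wide peak meets others more often by its width alone.

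H3K4me1 ran from 6.6 to 131.9 kb, and most of its peaks did not touch H3K27ac. All 24 peaks touched H3K27me3 (exact interval 85.8 to 100.0), against 6.21% of the 76772 in the list. With H3K27me3 over 79.8% of the window, a peak of any mark placed there would usually touch it. By bases 81.7% of H3K4me1 lay in H3K27me3, near that share of the window and below the 85.9% of the domain. H3K27ac was touched by 5 of the 24 (20.8%, 7.13 to 42.2), against 30.9% of the list. The widest H3K4me1 peak ran for 10414 bp from 96224193 to 96234606, that is from 119.2 to 129.6 kb, and ranked 112 by width in the list. Its score was only 105.18 (percentile 40.2), and 52.0% of its bases lay in H3K27me3 and 5.8% in H3K27ac. The strongest H3K4me1 peak lay at the opposite end, at 96111607 to 96117538 (5932 bp, score 506.67, percentile 93.6), around the weakly acetylated group at 7.8 to 9.3 kb. The next in width were at 40.2 to 43.8 kb (3564 bp, score 299.88), 88.0 to 90.9 kb (2945 bp, score 176.8) and 55.0 to 57.7 kb (2784 bp, score 253.84), and these 3 held 0 bp of H3K27ac. Without H3K4me3 or H3K27ac, H3K27me3 and H3K4me1 met on 24.6 kb, and 56.7 kb carried H3K27me3 alone.

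The other Hox clusters show which of these traits recur. Joined within 5 kb, H3K27me3 peaks of the Hoxb cluster formed a domain of 125.4 kb with 107.7 kb covered, rank 3 in covered length among all domains. The largest domains on the chromosomes of the other clusters were those of Hoxa on chromosome 6 (121.1 kb covered, rank 2), Hoxc on chromosome 15 (154.0 kb, rank 1) and Hoxd on chromosome 2 (99.2 kb, rank 4), named by chromosome and rank since no annotation of mm9 was used. H3K27me3 covered 85.9% of the Hoxb domain, against 93.8% of Hoxa, 91.2% of Hoxc and 91.5% of Hoxd, and gaps of 500 bp or more numbered 13 in Hoxb, against 6, 6 and 5. The longest gap was 3444 bp in Hoxb, against 1790 bp in Hoxa, 3699 bp in Hoxc and 1634 bp in Hoxd. Hoxb thus had the lowest covered share and the most gaps of 500 bp or more of the 4. Even so, 121 of the 215 H3K27me3 domains with at least 10 kb covered had a lower covered share. Of the 13 gaps in Hoxb, 8 began in the 21.2 kb beyond the acetylated stretch, where H3K27me3 covered 42.0%. The 90.8 kb on the Hoxb9 side of the stretch was 96.4% covered, and the stretch itself 84.5%. The other domains were not divided in this way.

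H3K27ac was present in the Hoxb and Hoxa domains and had 0 peaks in those of Hoxc and Hoxd. Among all 215 long domains, 16 (7.44%) overlapped H3K27ac, and by covered length of H3K27ac Hoxb was second with 7.83 kb in 10 peaks, after Hoxa with 8.99 kb in 8 peaks. The next domain had 2.79 kb, and the median of the 16 was 0.712 kb. The highest H3K27ac score was 543.94 in Hoxb and 993.65 in Hoxa. The share of H3K27ac bases inside H3K27me3 was 77.2% in Hoxb and 73.1% in Hoxa, against a median of 50.4% and a range of 0 to 100.0% over the 16 domains, most of which had a single H3K27ac peak. By raw share the overlap of both H3K27 marks was therefore similar in Hoxb and Hoxa. H3K27me3 covered 85.9% of the Hoxb domain and 93.8% of the Hoxa domain, however. In both, acetylated bases thus lay in H3K27me3 less often than all bases of the domain, and the shortfall was larger in Hoxa. Gaps with H3K27ac numbered 8 in Hoxb and 6 in Hoxa. The share of H3K4me3 bases inside H3K27me3 was 81.2% in Hoxb, against 82.5% in Hoxa, 95.0% in Hoxc and 82.5% in Hoxd.

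**Figure D5:**
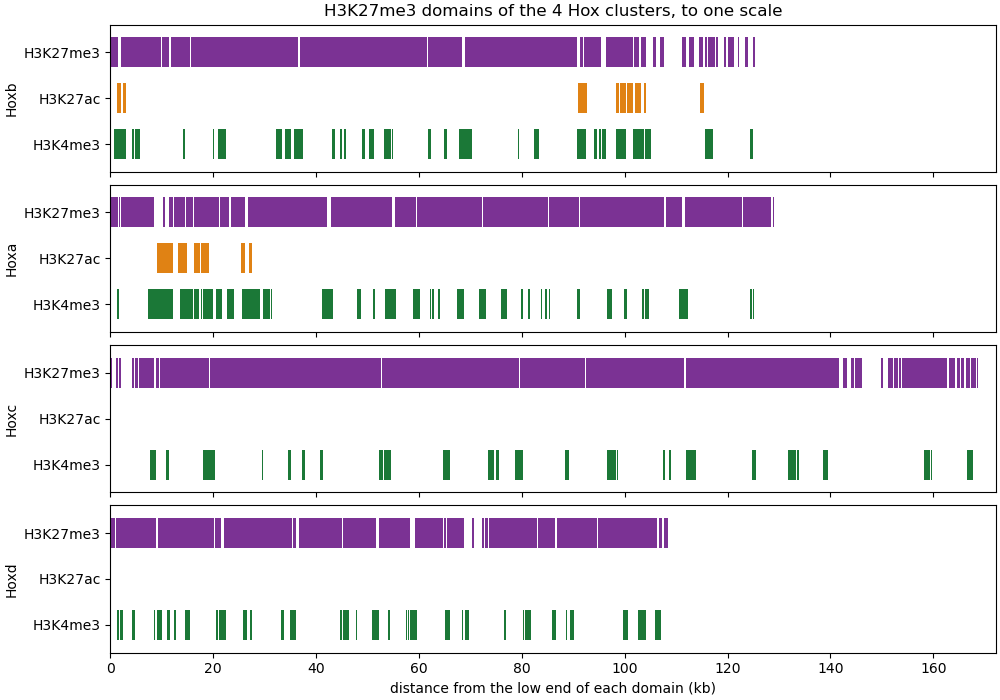
H3K27me3, H3K27ac and H3K4me3 peaks in the H3K27me3 domains of the Hoxb, Hoxa, Hoxc and Hoxd clusters, drawn to a common scale by the distance in kb from the low end of each domain. Hoxb has 10 and Hoxa 8 H3K27ac peaks, each mostly toward an end of its domain, and Hoxc and Hoxd have 0.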

How the data were processed

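Chromatin immunoprecipitation with sequencing was done for H3K27me3, H3K27ac, H3K4me3 and H3K4me1 in EpiSC9 cells, with 1 library per mark, grouped by the antibody in the labels. An input library was not used here. For every mark the authors deposited the positions of peaks (build mm9) and a score for each. The submitters' processing notes name Bowtie 0.12.9, MACS 1.4 and Cufflinks, without roles. How controls and duplicates were handled, and where peaks were cut off, is not given in the sources used here. The depth is unknown.

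Peaks sharing at least 1 bp with the window were taken, and coverage was counted base by base in 1-based positions. Shares of the chromosome and of the lists include the window. H3K27me3 peaks were joined within 5 kb into domains, and H3K27ac peaks within 5 kb into groups. Scores were used within a list only. Rows named by rule were all H3K27ac peaks, the 5 widest peaks of each other mark, the first and last peak of each mark and the 5 longest gaps; others were chosen after their values were seen, as were the motif and the start regions. The members, lists and rules were chosen with earlier results of these data known. Other score limits, joining distances and overlaps were tried. The interval functions were tested on simulated peaks. Python 3.11.15, numpy 2.4.6, pandas 2.3.3, scipy 1.17.1 and matplotlib 3.10.9 were used.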

Additional observations from a re-analysis of the deposited data

How the results depend on the processing

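The values rest on 1 library per mark and on the calling threshold. With only the peaks that reach the median score within every list, H3K27me3 covered 105.2 kb of the window (105.2 kb of the domain) and H3K27ac 4.73 kb (4.73 kb of the domain), 87.9% of it inside H3K27me3; 4 of 4 H3K27ac peaks and 8 of 8 H3K4me3 peaks touched H3K27me3, and 4 gaps held H3K27ac. With scores of 100 or more the values were 104.0 kb, 4.73 kb, 87.9%, 4 of 4 H3K27ac peaks and 4 gaps. With peaks of each list joined within 500 bp they were 111.3 kb, 9.23 kb, 86.5%, 5 of 5 joined H3K27ac peaks and 3 gaps. With at least 200 bp of H3K27ac required, 3 gaps remained counted. The domain covered 98.8 kb with 7.1 kb of H3K27ac when joined within 1 kb, and 108.9 kb with the widest joining distance tried. Fewer peaks follow from the stricter limits themselves. The other 11 recomputed values kept their printed value or, for counts, stayed within 1.5 times, among them all 6 with the domain in place of the window. The share of H3K27ac inside H3K27me3 lay between 77.2% and 87.9% throughout. With all peaks it was below the 85.9% of the domain that all H3K27me3 peaks covered, and with the score limits above it. No paired analysis was possible because each mark has a single library. The scores at 3100 hide differences among the strongest peaks, and gaps of a few bases depend on how the caller splits peaks.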

Other observations

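The surroundings of the cluster differed on the 2 sides in H3K27me3 and H3K4me3. In the 50 kb beyond the Hoxb9 end, H3K27me3 covered 16.5 kb in 5 peaks, most of it in another domain (43.7 kb covered, mm9 chromosome 11 at 96025482 to 96070636) that ended 40.8 kb before the Hoxb domain began. In the 50 kb beyond the Hoxb1 end H3K27me3 covered 0.911 kb in 2 peaks. H3K4me3 covered 4.23 kb in 7 peaks on the Hoxb9 side and 0.921 kb in 1 peak on the Hoxb1 side. H3K4me1 was more alike, with 6.8 kb in 3 peaks on the Hoxb9 side and 8.04 kb in 5 peaks on the Hoxb1 side. H3K27ac had 0 peaks in both flanks, and its nearest peaks outside the window were 101.7 kb away on the Hoxb9 side and 243.8 kb away on the Hoxb1 side.

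The H3K27ac peaks at the outer ends of the 13.4 kb stretch, at 96202244 and 96215197, had the same width (426 bp) and the same score (55.23).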
